A study of Mus musculus with 2 samples.

Results

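The genes described here are a set of 39 that encode the machinery of DNA replication and the regulators of the passage from G1 into S phase, chosen by function. They were read in cultured adipose-derived stromal cells, the fibroblast-like cells that grow out of fat tissue, from the inguinal fat pad of mice. A transcript cluster, the array's unit for 1 transcribed region, was taken for a gene when that gene's symbol was the only one listed for it. This gave 1 cluster each for 37 of the 39 genes, out of 30142 named genes on the array. Mcm7 and Ccnd1 had only clusters that also carry the symbols of microRNA genes, and their values are given apart from the 37.

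Cells of 2 genotypes were compared, both on the C57BL/6J background, from animals aged 6 to 10 weeks, and grown in DMEM with 15% FBS. The Wisp1 KO cells came from offspring of mice in which exons 1 to 5 of Wisp1, a gene for a secreted matricellular protein, had been floxed, after a cross to a mouse labelled Cre-neo. That knockout is global, per the labels, and the other cells were WT. Each genotype had 1 array, and the number of animals behind it is not given in the sources used here. There was therefore no replicate spread and no test, and each difference compares 2 arrays and not the genotypes. In RNA from a whole culture, fewer cells of a type and less RNA per cell cannot be told apart.

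Replication starts at origins that are licensed in G1, when ORC, Cdc6 and Cdt1 load the ring-shaped MCM2-7 helicase onto DNA. Entry into S phase turns the loaded rings into active helicases with Cdc45 and GINS, and the sliding clamp PCNA then holds the polymerases on the DNA. Most of these genes are transcribed under E2F factors, which are freed when cyclin D and cyclin E kinases phosphorylate the retinoblastoma protein. Their transcripts are therefore widely used as a sign of cycling cells.

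All values are log2 expression values, so that a step of 1 is a 2-fold difference, and each difference is Wisp1 KO minus WT. The deleted gene itself, Wisp1 (now Ccn4), read 5.40 on the KO array and 7.79 on the WT array (-2.39). Of 15 stromal markers, 13 lay at or above the median level of named genes (4.65), among them Pdgfrb (10.49 in KO, 10.38 in WT) and Col1a1 (11.90 in KO, 11.40 in WT), while Dpp4 and Nt5e lay below it on both arrays. By direction, 10 of the 15 were higher in KO, 5 by at least 1.2-fold with Lum the highest (0.60). Another 4 were lower, of which 1, Cd44 (-0.30), reached that size. Macrophage markers were higher in KO in 9 of 12 cases, by at least 1.2-fold in 6. Their summed linear signal was 520 in KO against 330 in WT. Lyz2 had the largest difference of these (7.43 in KO, 6.14 in WT, 1.29). Cd14 (-0.18) and Adgre1 (-0.08) were lower and Ptprc was equal. Among all named genes 47% were higher and 47.4% lower, and 4.7% were at least 1.2-fold higher. Of the 12, 6 had a mean below the median level, among them Ptprc, Adgre1 and Csf1r. Cd68, Lyz2, Fcer1g, Tyrobp, Laptm5 and Cd14 had a mean at or above it. The summed signal of 11 pericyte and smooth muscle markers was 10741 in KO and 12054 in WT, with 8 lower. Of 9 endothelial markers 6 were higher, led by Cdh5 (0.80) and Emcn (0.80), and 7 lay below the median level. The 3 Y-linked genes Uty, Kdm5d and Eif2s3y were at or above the median level on both arrays and Xist was below it (3.18 in KO, 3.25 in WT).

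The replication and G1-S genes differed little between the arrays, and not in one direction. Of the 37, 12 were higher in KO, 17 were lower and 8 had identical readings in KO and WT. Among all named genes 47% were higher, 47.4% were lower and 5.65% were equal. The median difference of the 37 was 0, as was that of all named genes, and their mean was -0.01. No member was at least 1.2-fold higher, a size that 4.7% of all named genes reached, and 1 member, Ccnd2, was at least 1.2-fold lower, a size that 5.35% reached. None of the 37 reached 2-fold, as 0.0896% of all named genes did.

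The level of a gene bears on this comparison, because brighter genes were on balance slightly higher on the KO array. Of the 37 members, 26 had a mean at or above the median level of 4.65 and 11 lay below it. The 26 comprised 10 higher, 14 lower and 2 equal ones, and their median was -0.0057. Over the 15072 named genes of that level range the median was 0.03, with 56.9% higher, 39.9% lower and 3.12% equal. At least 1.2-fold lower was 1 of the 26, against 4.27% of those genes, and none was 1.2-fold higher, against 6.4%. The 11 dimmer members had a median of 0, with 2 higher, 3 lower and 6 equal, where 8.18% of the dimmer named genes were equal. Of the 12 higher members, 10 stayed higher under median centring, quantile normalization and loess centring, while Mcm6 (0.03) and Mcm10 (0.02) turned lower under 1 of these. The 17 lower members stayed lower under all 3 scalings, but for most of them this outcome was largely fixed beforehand. Median centring took 0.03 from every gene, and quantile normalization and loess centring also moved the median of the brighter genes by -0.03 each. Of the 17, 14 were among the brighter genes. The lower directions are therefore not shown to be firmer than the higher ones. Since these scalings give the 8 equal members a sign, the counts became 11 higher and 26 lower under median centring, 17 higher and 20 lower under quantile normalization, and 18 higher and 19 lower under loess centring.

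**Figure D1:**
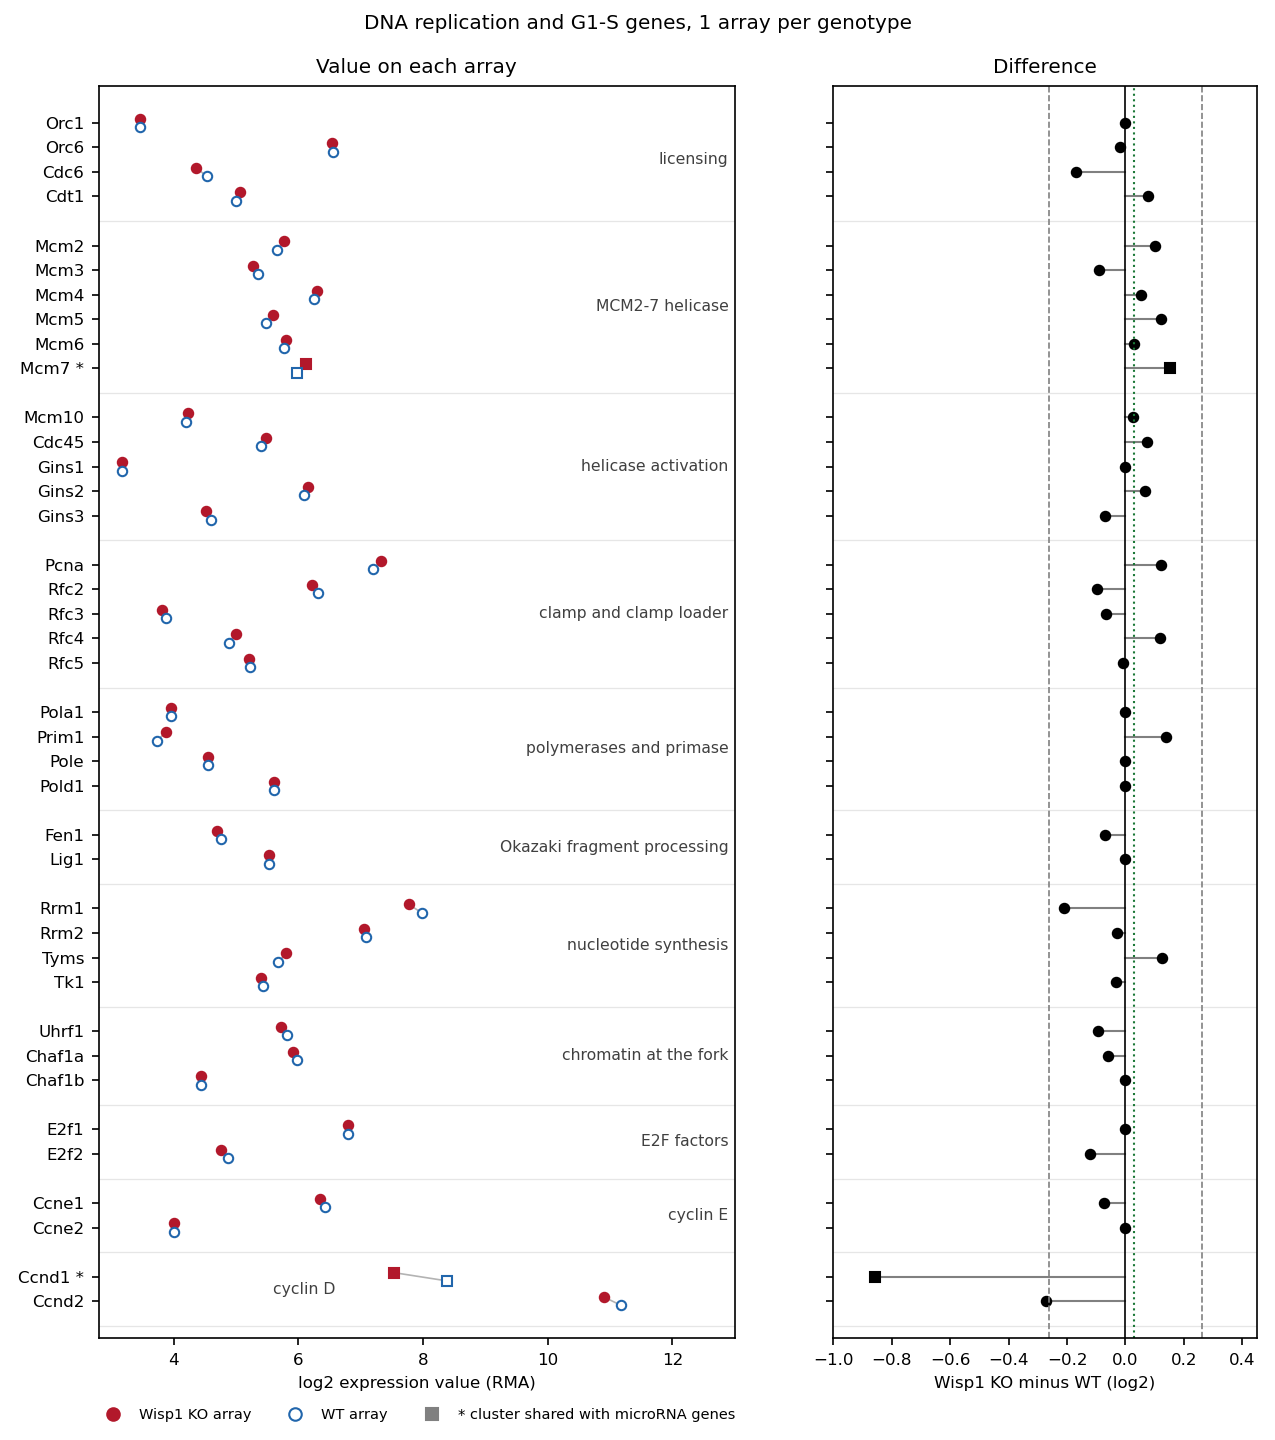
The left panel gives the log2 expression value of each gene on the Wisp1 KO array (filled red) and the WT array (open blue), by role, and the right panel the difference, Wisp1 KO minus WT. Squares and asterisks mark Mcm7 and Ccnd1, whose clusters also carry microRNA symbols, dashed lines mark 1.2-fold, and the dotted line is the median of all named genes at 4.65 or more (0.03). Ccnd1 (-0.86) and Ccnd2 (-0.27) lie at or beyond the lower dashed line and no gene reaches the upper one. Levels of different genes come from different probes and are not comparable.

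Among the licensing factors, Cdc6, the ATPase that works with ORC to load MCM rings, had the largest difference. It read 4.36 in KO cells and 4.53 in WT cells, lower by a difference of -0.17 and just below the median level on both arrays. Cdt1, its partner in MCM loading, was higher by 0.08, at 5.07 in KO and 4.99 in WT. The ORC subunit genes differed less, with Orc1 at 3.45 on both arrays and Orc6 at 6.53 in KO and 6.55 in WT. The licensing factors thus went in both directions, with a median of -0.0086 over 4 genes.

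The subunits of the MCM2-7 helicase, which unwinds DNA ahead of the fork, were mostly higher in KO. Of the 5 with a cluster of their own, 4 were higher and 1 was lower, with a median of 0.05. All 5 lay at or above the median level, where 56.9% of named genes were higher and the median was 0.03. Their own median was 0.03 under median centring and 0.02 under quantile normalization and loess centring. Mcm5 read 5.60 in KO against 5.47 in WT (0.12) and Mcm2 read 5.76 in KO against 5.66 in WT (0.10). Mcm4 was at 6.30 in KO and 6.25 in WT (0.05), and Mcm6 at 5.80 in KO and 5.77 in WT. The exception was Mcm3, at 5.27 in KO and 5.36 in WT (-0.09). The cluster of Mcm7 also lists Mir25 and Mir93, microRNA genes in an intron of Mcm7, and read 6.12 in KO and 5.97 in WT (0.15). With it the count would be 5 of 6 higher, and none of these differences reached 1.2-fold.

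E2F-type sequences in the promoters did not enter the choice of these genes and were found in a part of them. RefSeq promoter sequences of the build GRCm38.p6, from 250 bases before to 50 after a start site, were available for 31 of the 39 genes. They were searched on both strands for TTTCCCGC, TTTGGCGC, TTTCGCGC and TTTGCCGC, the forms of the E2F consensus, counting overlapping matches. A gene counted as having a match when any of its listed start sites had one. At least 1 match was found for 14 of the 31 genes (45.2%), against 704 of 27025 genes with a promoter (2.6%) and 4.44% of the 9520 genes among them at or above the median level. Other replication genes had a match in 10 of 36 cases (27.8%) and mitosis genes in 1 of 26 (3.85%), so these sequences were not confined to the described genes. Per start site the share was 2.26% of 32851 promoters of the same length. A match in this window is a description of the letters and not a binding site.

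The stretches below were chosen, after the values were seen, to set genes with a match and different differences beside each other, each of 120 bases upstream of the start. Mcm5 (0.12, chr8:75109302-75109421, plus strand) and Mcm6 (0.03, chr1:128359721-128359840, minus strand) stand for the higher genes. The sign of Mcm6 was not kept under quantile normalization (-0.0071). Cdc6 (-0.17, chr11:98907957-98908076, plus strand), Gins3 (-0.07, chr8:95633439-95633558, plus strand) and Uhrf1 (-0.09, chr17:56304072-56304191, plus strand) stand for the lower ones. Orc1 (chr4:108579334-108579453, plus strand) had the same value on both arrays. All are written 5′ to 3′ along the gene, and capitals mark the E2F-type matches on either strand. Matches overlap each other in Mcm5 and Mcm6.
Mcm5: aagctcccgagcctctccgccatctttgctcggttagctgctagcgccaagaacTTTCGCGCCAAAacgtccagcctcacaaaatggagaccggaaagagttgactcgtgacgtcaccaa
Mcm6: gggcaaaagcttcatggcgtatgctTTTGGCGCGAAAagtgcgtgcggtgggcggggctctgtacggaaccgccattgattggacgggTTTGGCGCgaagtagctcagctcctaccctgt
Cdc6: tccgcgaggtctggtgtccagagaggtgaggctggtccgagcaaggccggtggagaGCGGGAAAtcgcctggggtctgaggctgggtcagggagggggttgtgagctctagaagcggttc
Gins3: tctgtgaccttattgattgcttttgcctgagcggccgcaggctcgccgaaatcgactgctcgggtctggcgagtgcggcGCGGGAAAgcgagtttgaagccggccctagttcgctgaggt
Uhrf1: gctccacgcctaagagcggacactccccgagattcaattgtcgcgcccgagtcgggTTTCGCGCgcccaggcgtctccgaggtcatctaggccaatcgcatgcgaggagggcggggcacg
Orc1: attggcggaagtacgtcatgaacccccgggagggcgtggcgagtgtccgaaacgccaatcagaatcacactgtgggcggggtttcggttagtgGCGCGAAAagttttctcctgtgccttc

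Sharing a match did not go with a shared direction on these arrays. Of the 13 genes with a match and a cluster of their own, 3 were higher, 6 were lower and 4 were equal, with a median of 0. Of the 17 with a promoter but no match, 7 were higher, 9 were lower and 1 was equal, with a median of -0.0031. The CCAAT box (CCAAT), bound by the factor NF-Y, was found in 19 of the 31 genes (61.3%), against 41.1% of all genes with a promoter, 18 of 36 other replication genes (50%) and 20 of 26 mitosis genes (76.9%). The CHR element (TTTGAA or TTCGAA), known from genes of late cell cycle, was found in 7 of the 31 (22.6%), against 21.7% of all genes with a promoter, 5 of 36 other replication genes (13.9%) and 20 of 26 mitosis genes (76.9%).

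Genes that turn the loaded helicase on gave 3 higher, 1 lower and 1 equal value, with a median of 0.02 that was -0.0032 under median centring. Cdc45, which joins MCM2-7 and GINS in the active helicase, read 5.47 in KO and 5.40 in WT (0.07), and Mcm10, which helps the helicase to start, read 4.22 in KO and 4.20 in WT. The GINS subunits were divided, with Gins2 at 6.15 in KO and 6.08 in WT (0.07), Gins3 at 4.53 in KO and 4.60 in WT (-0.07) and Gins1 at 3.17 in both. The differences of Gins2 and Gins3 were of like size and opposite sign.

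Pcna and the genes of its loader, the RFC complex, which opens the clamp and sets it on DNA, were split as well. Pcna read 7.33 in KO against 7.20 in WT (0.12), and Rfc4 read 5.00 in KO against 4.88 in WT (0.12). On the other side stood Rfc2, at 6.22 in KO and 6.32 in WT (-0.10), and Rfc3, at 3.81 in KO and 3.88 in WT (-0.07). Rfc5 was at 5.21 in KO and 5.22 in WT (-0.0084). The small RFC subunits, which act in 1 complex, thus lay on both sides of 0.

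Of the polymerase genes, the 3 catalytic subunits were equal on both arrays. Pola1, which extends the RNA primers, was at 3.95, Pole, the leading-strand polymerase, at 4.55 and Pold1, the lagging-strand polymerase, at 5.61, in KO and WT alike. Prim1, the primase subunit that makes the RNA primers, had the highest difference of the 37 genes, at 3.87 in KO and 3.73 in WT (0.14), and was dim on both arrays. Its difference was matched or not reached by 84.0% of all named genes. In the processing of Okazaki fragments, Fen1, the nuclease that trims the flaps, read 4.69 in KO and 4.76 in WT (-0.07), and Lig1, the ligase that seals the nicks, 5.53 in both.

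Genes of nucleotide synthesis held the lowest difference of the replication machinery. Rrm1, the large subunit of ribonucleotide reductase, read 7.77 in KO cells and 7.98 in WT cells (-0.21, or 1.16-fold lower). Its small subunit Rrm2 was at 7.05 in KO and 7.08 in WT (-0.03). Thymidylate synthase, Tyms, was higher, at 5.81 in KO and 5.68 in WT (0.12), whereas the thymidine kinase gene Tk1 was at 5.40 in KO and 5.43 in WT (-0.03). The difference of Rrm1 was matched or exceeded downward by 8.64% of all named genes.

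Of the 3 genes of the chromatin group 2 were lower in KO, 1 was equal and none was higher. Among all named genes 47.4% were lower. Uhrf1, which brings the maintenance DNA methyltransferase to newly copied DNA, read 5.73 in KO and 5.82 in WT (-0.09). The CAF-1 histone chaperone subunits Chaf1a and Chaf1b were at 5.91 in KO against 5.97 in WT (-0.06) and at 4.44 in both. These differences were below 1.1-fold. Of related genes outside the set, Asf1a (0.24), Asf1b (0.13), Hells (0.08), Dnmt1 (0.04) and Nasp (0.04) were higher. Rbbp4 (-0.02) and Rbbp7 (-0.01) were lower.

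The E2F, cyclin E and cyclin D genes of the set were equal or lower in KO. E2f1, an activating E2F factor, differed by -0.0031, at 6.80 on both arrays, and E2f2, of the same class, read 4.76 in KO and 4.88 in WT (-0.12). Ccne1, one of the E-type cyclins that activate CDK2, was at 6.35 in KO and 6.43 in WT (-0.07), while Ccne2 was at 4.01 in both. With Ccnd2 this made 4 lower, 1 equal and none higher among 5 genes, against 12 higher, 13 lower and 7 equal among the 32 genes of the replication machinery. Among all named genes 47.4% were lower. Regulators of the same step outside the set went both ways, with E2f3 (0.21) and Cdk4 (0.18) higher and E2f6 (-0.43) and Cdk6 (-0.58) lower. The difference between those counts was not tested.

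D-type cyclins, which bind CDK4 and CDK6 and are the link from growth factor signals to the cell cycle, held the largest differences of the set. Ccnd2 read 10.91 in KO cells and 11.18 in WT cells, a difference of -0.27, or 1.21-fold lower, which 4.96% of all named genes matched or exceeded downward. The cluster of Ccnd1 read 7.53 in KO and 8.39 in WT, which made it 1.81-fold lower (-0.86). A value that low was found for 24 of the 30142 named genes. That cluster also lists Mir3962, and how its probes divide between the genes is not given in the sources used here. Mir3962 has a cluster of its own as well, which was dim and higher in KO (3.87 in KO, 3.64 in WT). Under the 3 scalings the difference of the Ccnd1 cluster lay between -0.90 and -0.88. With the shared clusters counted, 13 of the 39 genes were higher, 18 lower and 8 equal, and 2 were lower by at least 1.2-fold.

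Other genes of the same G1 control were read for comparison, from a list of 14. Of these 7 were higher and 7 lower, and the median was -0.0033. Cdk6 was lowest, at 5.94 in KO and 6.52 in WT (-0.58), and the remaining D-type cyclin, Ccnd3, was at 6.84 in KO and 6.97 in WT (-0.13). Its sister kinase Cdk4 was higher, at 8.87 in KO and 8.69 in WT (0.18). Myc (0.36), a growth regulator that acts on G1 genes, and Ccna2 (0.28), the cyclin of S phase and G2, were at least 1.2-fold higher, but Ccna2 lost this size under median centring (0.25), quantile normalization (0.24) and loess centring (0.25). Among 7 CDK inhibitor genes 5 were higher and 2 lower, but only 3 were higher under quantile normalization and under loess centring. Cdkn1b, which encodes p27 and restrains CDK2, read 6.88 in KO and 6.45 in WT (0.44), and Cdkn2a was the lowest, at 7.22 in KO and 7.38 in WT (-0.15).

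Among 14 genes of other E2F factors and pocket proteins, 9 were higher and 5 lower and the median was 0.02, but 6 were higher and 8 lower under median centring and quantile normalization, with medians of -0.0084 and -0.0080. The repressor gene E2f6 was lowest, at 6.18 in KO and 6.61 in WT (-0.43), and E2f3, an activator like E2f1 and E2f2, was the highest (0.21), followed by Lin37 (0.21). Rb1 differed by -0.0057, or by 0.19 when its clusters were averaged.

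The members of the set and their partner subunits in the same complexes did not share one pattern. Across 9 complexes, 22 members gave 7 higher, 9 lower and 6 equal values with a median of 0, and 15 other subunits gave 13 higher and 2 lower values with a median of 0.09. In polymerase delta, Pold1 was equal while Pold2 (0.08), Pold3 (0.17) and Pold4 (0.16) were higher. In polymerase epsilon, Pole was equal while Pole2 (0.04), Pole3 (0.16) and Pole4 (0.11) were higher, and in GINS the fourth subunit, Gins4, was at 8.21 in KO and 8.04 in WT (0.17). Ribonucleotide reductase was the only one of the 9 with no equal and no higher value, since Rrm2b was also lower (-0.06). The groups also differed in level, since members such as Orc1, Gins1, Pola1 and Pole lay below the median level but of the other subunits only Pole2 did. Of all named genes at or above that level 56.9% were higher, with a median of 0.03. All these differences were smaller than 1.2-fold and the contrast was not tested.

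**Figure D2:**
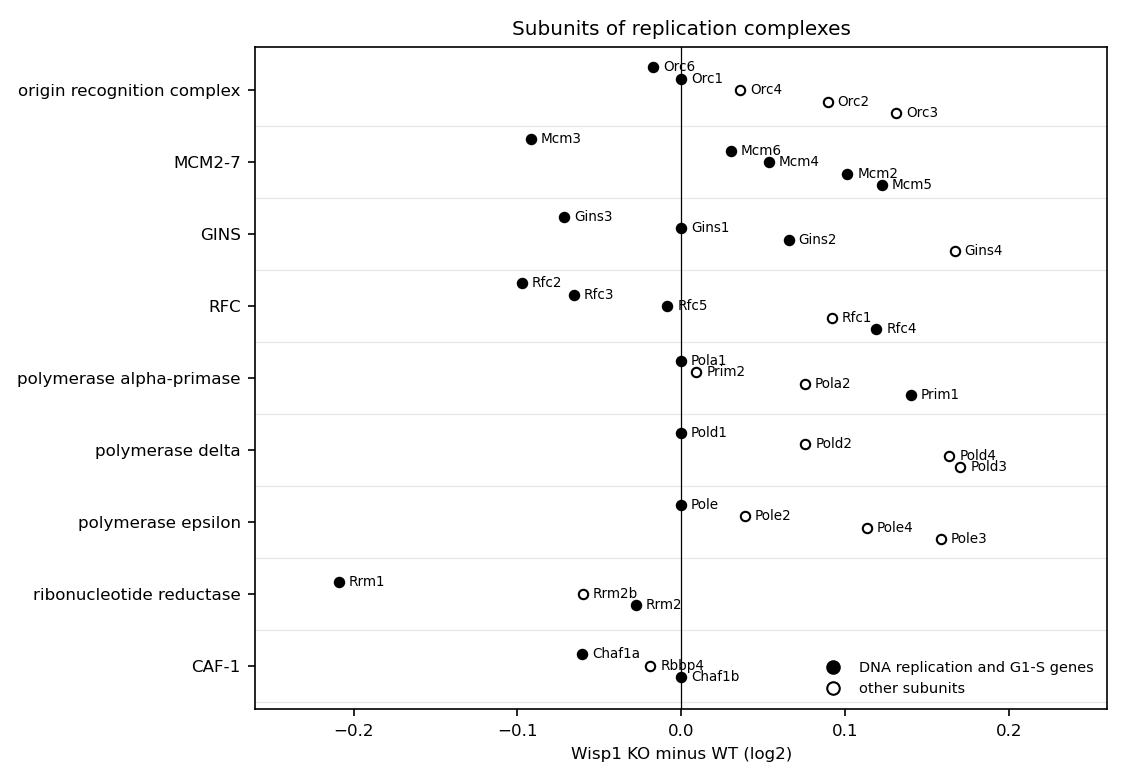
Differences, Wisp1 KO minus WT on the log2 scale, of the subunits of 9 replication complexes, with genes of the described set filled and other subunits open. The open points lie mostly to the right of 0 (13 of 15), and the filled points lie on both sides.

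Over the wider lists of replication genes outside the set, higher values prevailed. Among 16 other genes of origin licensing and firing there were 14 higher and 2 lower ones (median 0.07), from Mcm8 (-0.07) to the origin-firing kinase gene Cdc7 (5.21 in KO, 4.93 in WT, 0.28). In 25 other genes of the fork, 22 were higher, 1 was lower and 2 were equal with a median of 0.08, from Rpa1 (-0.16) to Tipin (0.21), a fork protection gene. The other 29 E2F target and S phase genes had 18 higher, 6 lower and 5 equal values and a median of 0.04, from Msh6 (-0.12) to Asf1a (0.24). Of 16 other genes of nucleotide synthesis 9 were higher and 6 lower, from Ctps (-0.24) to Shmt2 (7.90 in KO, 7.52 in WT, 0.38), and their median was 0.04, or -0.0060 under quantile normalization. The median of all named genes of at least median level was 0.03, and the genes of these 4 lists past 1.2-fold were Cdc7 and Shmt2. Cdc7 fell short of 1.2-fold under median centring (0.25) and quantile normalization (0.26), while Ctps was at least 1.2-fold lower under all 3 scalings (-0.28 to -0.27).

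Genes of mitosis stood further to the higher side than the replication and G1-S genes on these arrays. Of 30 mitosis genes, 27 (90%) were higher, 1 was lower and 2 were equal, with a median of 0.13, whereas 32.4% of the 37 replication and G1-S genes were higher. At least 1.2-fold higher were Ccnb2 (6.73 in KO, 6.20 in WT, 0.52), the proliferation marker Mki67 (6.87 in KO, 6.40 in WT, 0.47), Ttk (0.39), Nuf2 (0.35) and Ube2c (0.26), and Ndc80 was the one lower gene (-0.07). Ttk and Nuf2 lay below the median level, and Ube2c, which just reached 1.2-fold, fell short of it under median centring (0.24), quantile normalization (0.23) and loess centring (0.22). Among all named genes 47% were higher and 4.7% at least 1.2-fold higher. At or above the median level these shares were 56.9% and 6.4%, with a median of 0.03. Of the 37 replication and G1-S genes, 21.6% were equal, which lowers their share of higher genes. The difference between the 2 lists was not tested, and both were chosen with earlier results of these data known. Macrophage markers were also mostly higher (9 of 12, with 2 lower and 1 equal). Their summed signal was 520 in KO and 330 in WT, with Lyz2 the largest difference (1.29). Stromal (10 of 15) and endothelial markers (6 of 9) were also mostly higher. Mostly lower were pericyte and smooth muscle (8 of 11), adipocyte (6 of 10), lymphocyte (6 of 9) and epithelial markers (5 of 7). Among all named genes 47.4% were lower. All 9 lymphocyte markers lay below the median level, and the summed adipocyte signal was 908 in KO and 894 in WT. The part of any of these cell types in the mitosis values was not tested.

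**Figure D3:**
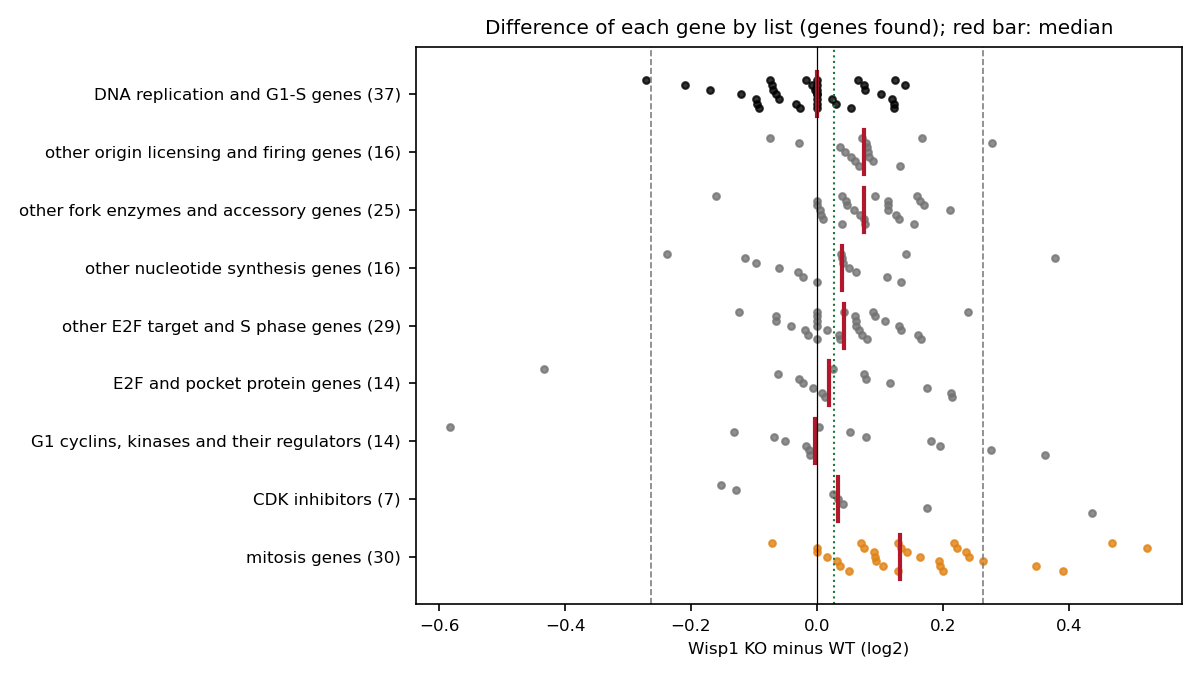
Differences, Wisp1 KO minus WT on the log2 scale, of each gene found in 9 lists, with the number of genes in parentheses and red bars for medians. Dashed lines mark 1.2-fold and the dotted line the median of all named genes at 4.65 or more (0.03). The replication and G1-S genes centre on 0 and the mitosis genes on 0.13.

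The plot of difference against mean level sets both lists beside all named genes. After loess centring on the mean level, the median of the 37 genes was -0.02 and that of the mitosis genes 0.12.

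**Figure D4:**
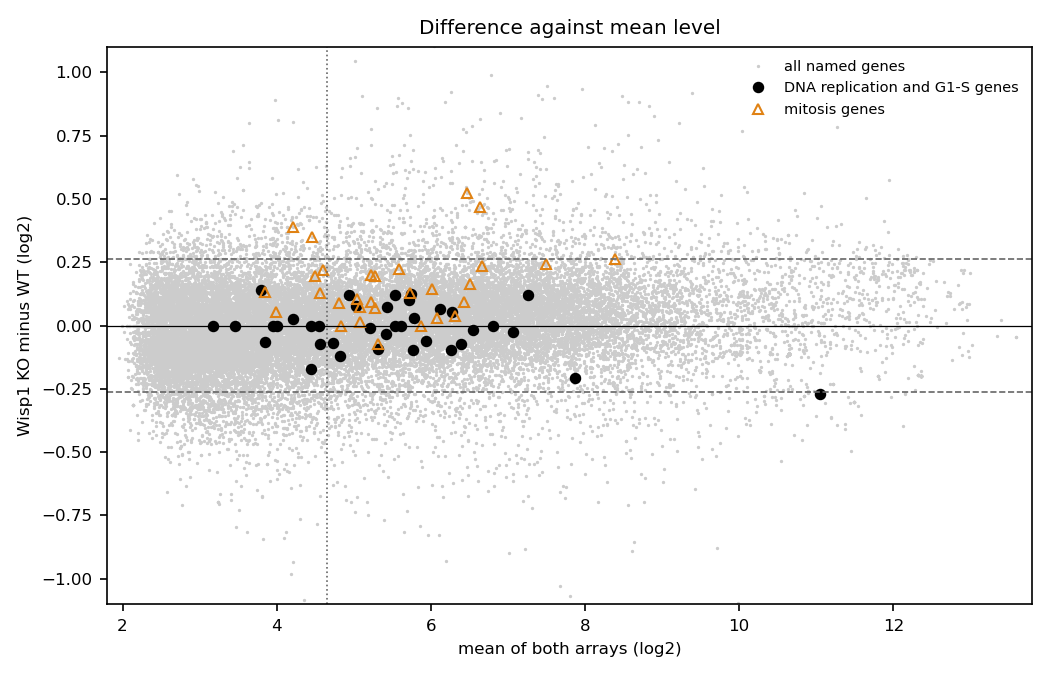
Difference, Wisp1 KO minus WT on the log2 scale, against the mean of both arrays for all named genes (grey, cropped at 1.1 on either side), the 37 replication and G1-S genes (black) and the 30 mitosis genes (orange triangles). Dashed lines mark 1.2-fold and the dotted line the median level of 4.65. Black points lie on both sides of 0, and 27 of 30 triangles lie above it.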

How the data were processed

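RNA from 1 Wisp1 KO and 1 WT culture was hybridised to whole-transcript arrays (TRIZOL extraction and the GeneChip WT PLUS kit, per the labels). The deposited log2 expression values of 65956 transcript clusters were made by the authors with RMA in Partek, per the submitters' processing notes, whose versions are not given in the sources used here. Whether both arrays were normalized together is not given in the sources used here, and their medians were 3.92 in KO and 3.93 in WT. Where arrays are normalized together, RMA makes their distributions alike, which hides a shift shared by all genes. Its summary also shrinks differences of dim genes. The number of arrays, 1 per genotype, limits the precision.

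From these values the difference Wisp1 KO minus WT was taken, with no further normalization and no filter on low values. By the platform annotation, 30604 clusters had 1 gene symbol, 2146 had several and 33206 had none. The symbols of 827 were updated through RefSeq (GRCm38.p6). Of the 30142 named genes 355 had more than 1 cluster, and the one with the highest mean was kept. No coordinates are given for clusters, since the array's build is not given in the sources used here; promoter coordinates are RefSeq's.

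A difference of at least 1.2-fold (0.26 on the log2 scale) was the size rule, with 2-fold as the stricter one. All 39 members were named, with both array values for those past 1.2-fold and for the largest difference in each role, and in each other list the genes past 1.2-fold, the highest and the lowest. The members and lists were chosen with earlier results of these data known. The alternatives were a filter at the median level (4.65), median centring, quantile normalization, loess centring (span 0.3), the mean over clusters, keeping clusters of several symbols, fold sizes other than 1.2 and means instead of medians. The steps were tested on simulated data. Figures were drawn with matplotlib 3.10.9, loess came from statsmodels 0.14.6, and the rest ran in Python 3.11.15 with pandas 2.3.3 and numpy 2.4.6. Adipocyte, lymphocyte and epithelial markers were read as well: of 10 adipocyte genes 4 were higher, none by 1.2-fold, and 6 were lower, 3 by at least 1.2-fold (Retn at -1.08, Adipoq at -0.64 and Cebpa at -0.28), with a median of -0.12 and a summed signal of 908 in KO and 894 in WT, all 9 lymphocyte genes lay below the median level, and 2 of 7 epithelial genes were higher.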

Additional observations from a re-analysis of the deposited data

How the results depend on the processing

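No paired analysis was possible because each genotype had 1 array. No direction of a called value reversed under any alternative run. For the scalings this was largely fixed beforehand. A called value differs from 0 by at least 0.26, and each scaling moved the median of the brighter genes by only -0.03. A count was taken as unchanged within 1.5 times and a median within 0.1 on the log2 scale. This held for 394 of 434 summary values and 1099 of 1100 single-gene values, the exception being Rb1 (0.19 as the mean over clusters). For medians and single genes the check was weak, because each scaling moved the median of the brighter genes by only -0.03. A median could change sign and still count as unchanged. That of the CDK inhibitors did (0.03, or -0.0087 under quantile normalization), as did that of the E2F and pocket protein genes (0.02, or -0.0084 under median centring). The mean over clusters could not change the 37 genes, which have 1 cluster each. The median of the 37 genes was -0.0057 at or above the median level, -0.03 under median centring and under quantile normalization and -0.02 under loess centring. Median centring gave 26 lower members. Members lower by the size rule numbered 2 with clusters of several symbols kept, 3 at 1.1-fold and 0 at 1.5-fold and 2-fold, and 1 was higher at 1.1-fold. The median of the polymerase genes was 0.14 without equal values, an alternative chosen after seeing the data that leaves Prim1 alone, and that of the D-type cyclins was -0.56 with Ccnd1 included. For licensing and firing genes, 0 were lower at or above the median level. None (0) lay past the size rule upward under median centring, quantile normalization and 1.5-fold. Lower fork genes numbered 6 under median centring, 5 under quantile normalization and 4 under loess centring. For nucleotide genes, 1 was past the size rule downward under each of these scalings and 0 upward at 1.5-fold. Among E2F targets, 11 were higher and 3 lower at or above the median level, and 12 lower under median centring. Among E2F and pocket protein genes, 8 were lower under median centring and quantile normalization, and 0 past 1.5-fold downward. Among G1 genes, 1 was past the size rule upward under each scaling, and 0 in either direction at 1.5-fold. CDK inhibitors had 3 higher and 4 lower under quantile normalization and loess centring, and 0 past 1.5-fold upward. Of mitosis genes, 3 were past the size rule upward at or above the median level and 0 at 1.5-fold, and 4, 4 and 2 were lower under median centring, quantile normalization and loess centring.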

Other observations

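Equal values were more frequent among the replication and G1-S genes than among all named genes, without a test. Of the 37, 8 (21.6%) had identical readings in KO and WT, namely Orc1, Gins1, Pola1, Pole, Pold1, Lig1, Chaf1b and Ccne2, against 5.65% of named genes. Below the median level it was 6 of 11 members, against 8.18% of the 15070 named genes there. At or above it, it was Pold1 and Lig1, 2 of 26 members, against 3.12% of named genes. Over all 65956 clusters 2938 (4.45%) were equal. The other 29 E2F target and S phase genes held 5 equal values, and how equal values arose was not tested.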
